A study of Homo sapiens with 36 samples.

Results

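A line labelled LMO2 control was set against parental cells in K562, an established human leukemia line with erythroid features. The comparison used 6 LMO2 control and 6 parental libraries, 12 of the 36 in the series, matched by day and by a biological replicate number (bio rep 1 or 2). Both lines were sampled untreated (day 0) and after 1 and 4 days of dTAGv1, labelled as 750 uM, where nM may have been meant. The question was how far the LMO2 control line differs from parental cells under the same treatment. Each label stands for 1 line, and no source used here states what was introduced into the LMO2 control line, so a higher LMO2 level and any other property of that line cannot be told apart. A further 12 libraries from 2 LMO2 degron lines, sampled on the same days, are given as values beside some results. Nothing in the labels says whether bio reps are separate cultures, so p-values measure the spread among these libraries.

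LMO2 is an adaptor protein with LIM domains and no DNA binding of its own. In blood precursors it joins TAL1 with an E protein, GATA1 and, through LDB1, further copies of the complex at erythroid genes. A dTAG degron is a mutant form of the prolyl isomerase FKBP12, which FKBP1A encodes, fused to a target protein, and dTAGv1 joins that tag to the VHL ubiquitin ligase so that the fused protein is broken down.

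Polyadenylated RNA was sequenced to 19.8 to 25.7 M assigned fragments in the parental and 17.2 to 24.4 M in the LMO2 control libraries, as recovered from the deposited FPKM (fragment counts scaled to gene length and library size). Libraries of 1 line and day correlated between bio reps at 0.941 to 0.976 across genes. The first principal component (37.6% of the variance) separated bio rep 1 from bio rep 2 in both lines, and the second (24.3%) separated the lines. Bio rep was therefore a term in each model, and results that differ between bio reps are given for both. All 12 K562 marker genes passed the filter on low values, among them GATA1 (135 to 155 FPKM in parental and 141 to 186 in LMO2 control libraries). Of the defining markers of other cells, MS4A1 (B cells) was listed at 0 in all 12 libraries, while CD14 and CSF1R (monocytes), CD3E (T cells), COL1A2 and DCN (stroma) stayed under 1 FPKM in each.

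The targeted gene came first. In parental cells LMO2 measured 37.2, 46.6 and 37.8 FPKM on days 0, 1 and 4 in bio rep 1 and 32.3, 31.2 and 44.2 in bio rep 2. In the LMO2 control line the same libraries gave 248, 212 and 286 FPKM in bio rep 1 and 252, 328 and 443 in bio rep 2. Every LMO2 control library lay above every parental one, with ratios of 4.55 to 10.5 between matched libraries. The mean matched log2 difference was 2.89 ± 0.434 (SD, n = 6), higher in 6 of 6 pairs (exact sign-flip permutation test, two-sided p = 0.03125, the smallest p that 6 pairs allow). In the linear model the difference was 2.89 ± 0.144, adjusted p = 9.91e-07. The 2 degron lines had 128 to 271 and 135 to 265 FPKM over all days, above all parental libraries and overlapping the LMO2 control range.

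FKBP1A, whose product is the protein from which the dTAG tag is derived, was also higher. Its libraries gave 80.4, 103 and 126 FPKM in parental cells (lowest, median, highest) and 272, 360.2 and 583 in the LMO2 control line, with no overlap (1.90 ± 0.0881, adjusted p = 8.21e-07). In the degron lines FKBP1A ran from 232 to 424 and from 233 to 431 FPKM, also above the parental range. The 6 LMO2 control libraries fell in the same order for LMO2 and for FKBP1A, both lowest on day 1 of bio rep 1 and highest on day 4 of bio rep 2. Whether the FKBP1A fragments came from the gene itself or from a tag cannot be told apart in values summed per gene.

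FKBP1C, a copy of FKBP1A on chromosome 6 without introns, differed more in relative terms. It had 1.05, 1.92 and 2.63 FPKM in parental cells (lowest, median, highest) and 15.4, 17.2 and 30.3 in the LMO2 control line (2.82 ± 0.0923, adjusted p = 1.25e-07), and no library of either line lay in the range of the other. Its sequence is shown because fragments of one copy can be assigned to the other. The coding sequence of FKBP1A (chromosome 20; 327 bases, stop included) and the matching stretch of the FKBP1C transcript, from GENCODE release 29, differ at 6 bases (98.2% identity). The first 300 bases of each, 5′ to 3′ on the strand of the gene, hold all 6, given in capitals. The longest stretch without a difference is 133 bases.
FKBP1A: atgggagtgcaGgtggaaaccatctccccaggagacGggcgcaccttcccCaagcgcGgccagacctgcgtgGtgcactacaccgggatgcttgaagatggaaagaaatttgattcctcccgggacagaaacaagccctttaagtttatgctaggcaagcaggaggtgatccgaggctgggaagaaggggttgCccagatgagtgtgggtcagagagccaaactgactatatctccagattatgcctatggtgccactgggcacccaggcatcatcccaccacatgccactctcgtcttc
FKBP1C: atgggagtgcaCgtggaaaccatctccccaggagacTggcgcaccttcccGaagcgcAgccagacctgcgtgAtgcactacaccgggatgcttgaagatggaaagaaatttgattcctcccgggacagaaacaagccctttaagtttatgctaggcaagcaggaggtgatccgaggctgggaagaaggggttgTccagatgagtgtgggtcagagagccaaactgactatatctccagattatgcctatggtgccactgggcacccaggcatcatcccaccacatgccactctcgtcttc
The values of both copies are uncertain for that reason, and no source used here says how shared fragments were counted.

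RNU6-1, a gene for the U6 spliceosomal RNA on chromosome 15, showed the largest log2 difference of all 13949 genes tested. Parental libraries held 0, 2.18 and 2.03 FPKM on days 0, 1 and 4 in bio rep 1 and 1.58, 3.36 and 1.41 in bio rep 2. LMO2 control libraries held 101, 77.6 and 129 and 117, 168 and 233 (5.69 ± 0.242, adjusted p = 5.36e-07). Degron line 1 was higher still, at 338 to 789.9 FPKM, and degron line 2, at 141 to 338, overlapped the LMO2 control line, so that of the 4 lines only the parental one was near 0. Other U6 genes were low in every line: RNU6-2, RNU6-7, RNU6-8 and RNU6-9 stayed at or under 3.71 FPKM in all 24 libraries. U6 genes are near-identical copies, so the value is uncertain as to which copy its fragments came from. The libraries hold polyadenylated RNA, so the value is also not taken as the level of U6 RNA in the cell.

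**Figure D1:**
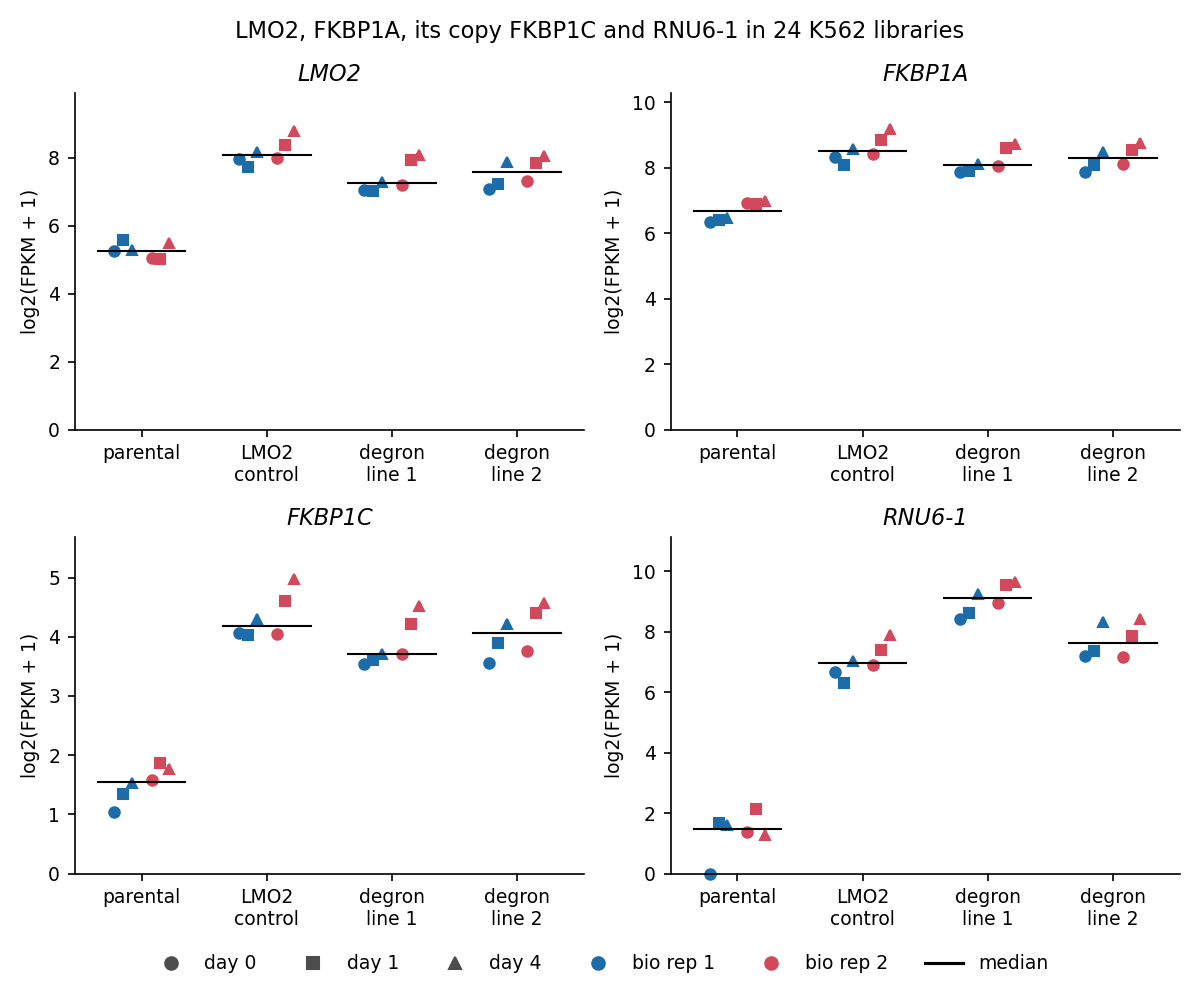
Levels of LMO2, FKBP1A, FKBP1C and RNU6-1 as log2(FPKM + 1) (vertical axes) in the 24 libraries of the 4 K562 lines (horizontal axes), with a mark for each library by day and a colour for each bio rep, and the median as a line. For each of the 4 genes, all 6 LMO2 control libraries and all 12 degron libraries lie above the 6 parental ones.

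Differences across all genes were then measured. A level of 1 FPKM or more in at least 2 of the 12 libraries was required, which 13949 genes met, and of these 3302 (23.7%) passed an adjusted p under 0.05 in limma, 1969 higher in the LMO2 control line (14.1%) and 1333 lower (9.56%). The balance turned with the scaling: after median-of-ratios scaling, 1534 were called higher and 1938 lower. Most of these differences were small. The median size among called genes was 0.35 on the log2 scale of FPKM + 1, and 189 genes (1.35%) reached 2-fold, 122 higher (0.875%) and 67 lower (0.48%). Of the 3302 called genes, 2935 had 1 sign in all 6 matched pairs. The ranges of the 6 and 6 libraries did not overlap for 572 genes higher (4.1%) and 394 lower (2.82%) of all 13949. Without bio rep in the model, 1221 genes were called (760 higher, 461 lower), all of them among the 3302.

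Genes differed between the lines before dTAGv1 as well as under it. On day 0, 410 genes were called (2.94%), 295 higher (2.11%) and 115 lower (0.824%), on day 1, 326 (2.34%), 178 higher (1.28%) and 148 lower (1.06%), and on day 4, 300 (2.15%), 167 higher (1.2%) and 133 lower (0.953%). A test of whether the line difference itself changed found 0 genes from day 0 to day 1 and 0 from day 0 to day 4 in limma, with 255 and 261 genes at an unadjusted p under 0.05. With median-of-ratios scaling the day 0 split was 229 higher and 158 lower. The counts for single days rest on 2 libraries per line and moved with single libraries. The day 0 count was 155 without parental day 0 replicate 2, 79 without LMO2 control day 0 replicate 1 and 71 without replicate 2. The day 1 count was 78 and 74 without parental day 1 replicate 1 and 2, 139 without LMO2 control day 1 replicate 1 and 861 without replicate 2. The day 4 count was 54 and 71 without parental day 4 replicate 1 and 2, and 59 and 74 without LMO2 control day 4 replicate 1 and 2.

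**Figure D2:**
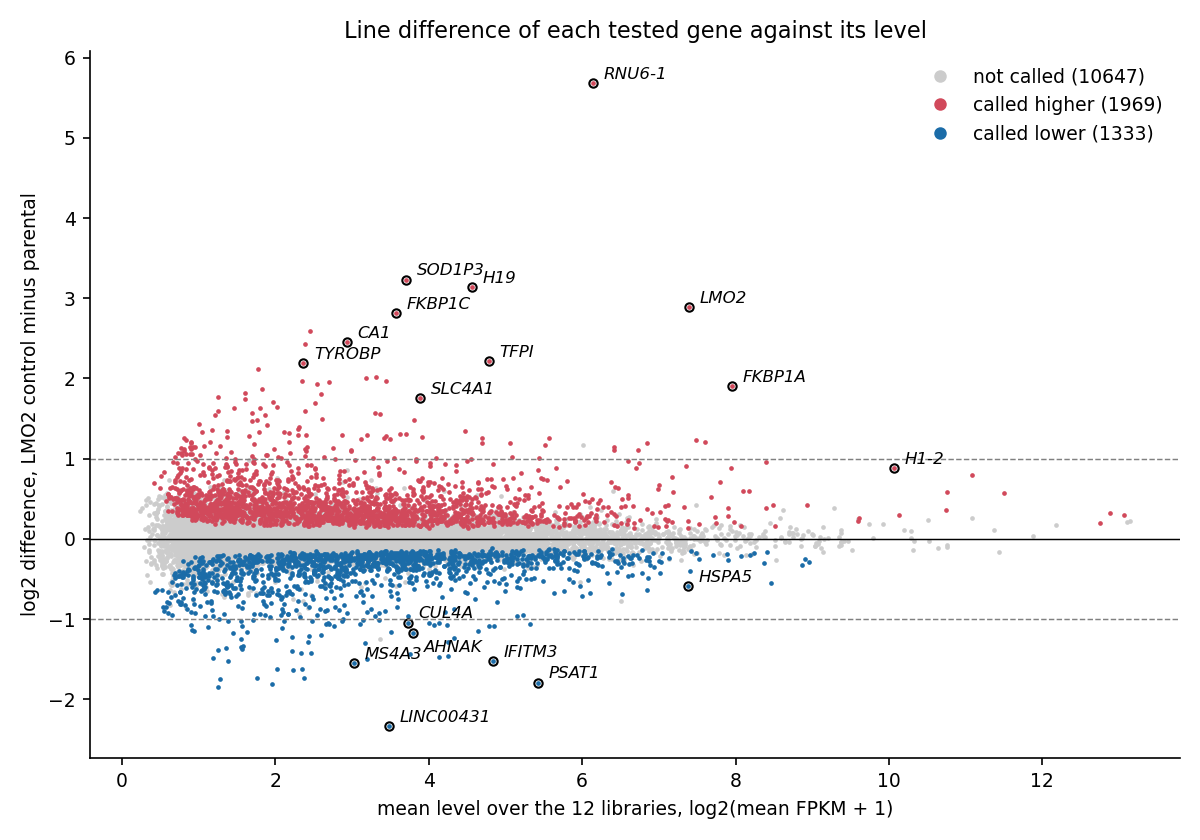
Log2 difference between the LMO2 control and parental lines (vertical axis) against mean level as log2(mean FPKM + 1) (horizontal axis) for the 13949 tested genes, each a point coloured by its call, with dashed lines at 2-fold and circles on 18 genes named in the text. The called genes lie mostly within 2-fold on either side of 0, and RNU6-1 stands highest at 5.69.

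Among genes with a mean of at least 5 FPKM, the 12 largest rises with 1 sign in all pairs were RNU6-1, SOD1P3, H19, LMO2, FKBP1C, CA1, TFPI, AIF1, VCX3A, PLA2G4A, AL137001.2 and FKBP1A. H19, an imprinted long non-coding RNA, had 1.5, 2.9 and 11.2 FPKM in parental cells (lowest, median, highest) and 27.9, 33.2 and 70.1 in the LMO2 control line (3.14 ± 0.19, adjusted p = 2.99e-06). Its parental values spread widely but none reached the lowest LMO2 control value. TFPI, an inhibitor of tissue-factor coagulation, stood at 4.84, 9.58 and 10.9 FPKM against 40.3, 42 and 51.8 (2.22 ± 0.122, adjusted p = 1.67e-06). CA1, a red-cell carbonic anhydrase, went from 0.186 to 2.24 FPKM (median 1.21) in parental cells and from 2.69 to 20.5 (median 12.9) in the LMO2 control line (2.46 ± 0.211, adjusted p = 2.87e-05). In CA1 bio rep 1 was the higher replicate of both lines, and the lowest LMO2 control library (day 4, bio rep 2) was just above the highest parental one. PLA2G4A, the cytosolic phospholipase A2, gave 2.16, 3.51 and 4.72 FPKM against 9.34, 16.9 and 22.2 (1.97 ± 0.0989, adjusted p = 9.91e-07). AIF1, a calcium-binding protein of macrophages, gave 1.72, 3.08 and 4.2 FPKM against 11.6, 15.4 and 17.4 (2.02 ± 0.0874, adjusted p = 5.36e-07). Neither gene had overlapping ranges. VCX3A, a testis-expressed gene of the X chromosome with close copies, and the non-coding AL137001.2 rose by 2.01 and 1.95.

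SOD1P3, a processed copy of the superoxide dismutase gene SOD1 on chromosome 8, had 0.743, 1.24 and 2.11 FPKM in parental cells (lowest, median, highest) and 13.4, 20.9 and 35.9 in the LMO2 control line (3.23 ± 0.219, adjusted p = 5.35e-06). It was at most 0.284 and 0.513 FPKM in the 2 degron lines, so that among the 4 lines the LMO2 control line alone held it above 3 FPKM. SOD1 itself ran from 133 to 152 FPKM in parental and from 126 to 139 in LMO2 control libraries, and the 2 ranges overlapped.

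Some genes were near absence in one line and present in the other. In all, 44 genes were under 1 FPKM in every parental library and at least 1 FPKM in every LMO2 control library. The 6 with the largest difference were DCAF8L1, AC016710.2, LINC00861, GTF2IP3, CA3 and AL359894.1. DCAF8L1, a gene of the X chromosome related to substrate receptors of CUL4 ligases, ran from 0.439 to 0.742 FPKM (median 0.687) in parental cells and from 6.48 to 9.22 (median 7.82) in the LMO2 control line (2.43 ± 0.0809, adjusted p = 1.25e-07), and it stayed under 1 FPKM in the degron lines. CA3, a carbonic anhydrase gene next to CA1, ran from 0.0171 to 0.0574 FPKM (median 0.0453) in parental cells and from 1.23 to 3.95 (median 2.77) in the LMO2 control line (1.77 ± 0.145, adjusted p = 2.01e-05). Conversely, 21 genes were under 1 FPKM in every LMO2 control library and at least 1 FPKM in every parental one. Among these AL590681.1, ENPP3, MS4A4A, SPIRE1, PPM1E and MARCKS differed most. ENPP3, a surface ectonucleotidase of basophils and mast cells, stood at 1.97, 2.72 and 3.49 FPKM against 0.0636, 0.118 and 0.142 (-1.75 ± 0.0993, adjusted p = 1.95e-06), and MARCKS, a protein kinase C substrate at the membrane, at 1.66, 2.39 and 3.36 FPKM against 0.172, 0.323 and 0.42 (-1.39 ± 0.124, adjusted p = 3.96e-05). In both genes the ranges were apart. These fold changes are on the log2(FPKM + 1) scale and understate the ratio of genes near 0.

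The 12 largest falls by the same rule were LINC00431, PSAT1, MS4A3, IFITM3, SAGE1, PTPN7, ANKRD10-IT1, TBX1, PRNP, ANKRD10, OR51B5 and AHNAK. IFITM3, an interferon-induced membrane protein that limits virus entry, had 36, 40.5 and 46.4 FPKM in parental cells (lowest, median, highest) and 12, 13.1 and 17.8 in the LMO2 control line (-1.53 ± 0.0614, adjusted p = 4.41e-07). Its ranges were far apart. AHNAK, a very large scaffold protein, had 14.8, 18.7 and 21.4 FPKM against 6.06, 7.13 and 10.4 (-1.18 ± 0.118, adjusted p = 8.51e-05), and PRNP, the prion protein gene, had 10.3, 11.9 and 12.7 FPKM against 3.04, 4.35 and 5 (-1.30 ± 0.0671, adjusted p = 1.09e-06). TBX1, a T-box transcription factor, had 16.7, 18 and 20.9 FPKM against 3.86, 6.31 and 9.55 (-1.44 ± 0.106, adjusted p = 9.69e-06). None of these 3 overlapped. PTPN7, a phosphatase of blood cells, fell by 1.47 on the log2 scale (adjusted p = 1.78e-05), with ranges that just overlapped and bio rep 2 above bio rep 1 in both lines. MS4A3, a membrane protein of myeloid precursors, also overlapped, at 3.75, 11.1 and 17.8 FPKM against 1.11, 2.84 and 6.18 (-1.55 ± 0.208, adjusted p = 0.000542). LINC00431, ANKRD10-IT1 and ANKRD10 lie in a stretch of chromosome 13 described further on.

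To describe groups of genes, 30 lists were counted, with their medians beside that of all tested genes (0.02). The list of LMO2 and its complex partners had 18 tested members, of which 4 were called higher and 2 lower (background 14.1% and 9.56%), with a median of 0.00. Apart from LMO2, ZFPM1 rose most. ZFPM1 encodes FOG1, the cofactor of GATA1, and stood at 6.33, 8.14 and 10.3 FPKM against 11.9, 15.1 and 19.3 (0.84 ± 0.0605, adjusted p = 8.64e-06), with ranges apart. TAL2, a relative of TAL1, and LDB1, the bridging protein, were the other members called higher. LDB1 had 68, 84.4 and 96.7 FPKM against 85.3, 94.2 and 107 (0.19 ± 0.0552, adjusted p = 0.0297), higher in 6 of 6 pairs with overlapping ranges. LMO4, a LIM-only relative of LMO2, had 3.69, 3.81 and 4.15 FPKM against 2.36, 2.77 and 2.97 (-0.39 ± 0.0559, adjusted p = 0.000826), with no overlap. TAL1, the DNA-binding partner, had 15.7, 24.5 and 36.7 FPKM against 12.9, 19.8 and 28 (-0.29 ± 0.0706, adjusted p = 0.0147), lower in 6 of 6 pairs with overlapping ranges. GATA1, GATA2, LYL1, TCF3, SSBP2, SSBP3 and SSBP4 did not pass the test, with log2 differences from -0.11 to 0.14. LDB1 and TAL1 were not called without bio rep in the model (adjusted p = 0.305 and 0.583), nor was LDB1 with median-of-ratios scaling (adjusted p = 0.15). LDB1 lost its call without any 1 of 8 libraries, with adjusted p from 0.0544 to 0.0724: parental day 0 replicate 1, day 1 replicate 2 and day 4 replicate 1, and LMO2 control day 0 replicates 1 and 2, day 1 replicates 1 and 2 and day 4 replicate 2. Without bio rep in the model the list had 2 members called higher and 1 lower, and without LMO2 control day 0 or day 4 replicate 2 it had 2 members called higher.

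**Figure D3:**
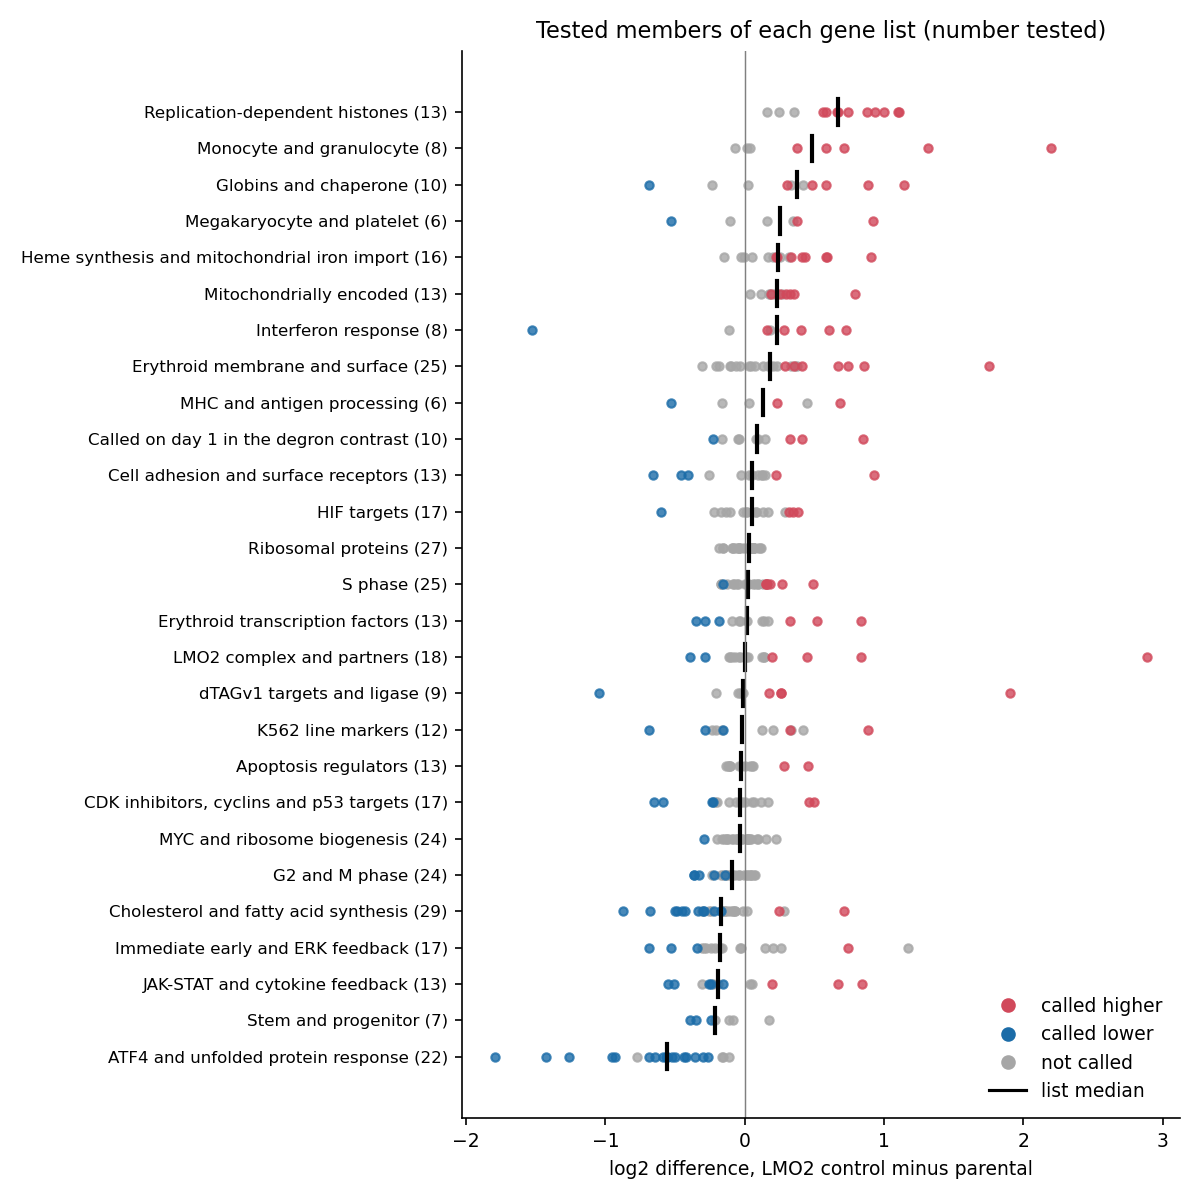
Log2 difference between the LMO2 control and parental lines (horizontal axis) for each tested member of the lists with at least 5 tested members (vertical axis, number tested in brackets), coloured by call, with the list median as a black bar. The histone list lies highest (median 0.67) and the list of ATF4 and unfolded-protein genes lowest (median -0.56).

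Over all 12 libraries, more genes of heme, globin and the red-cell membrane were called higher than lower in the LMO2 control line. For globins this did not hold in bio rep 1 alone (1 higher, 2 lower) or without day 0 (0 higher, 1 lower). The list medians were larger in bio rep 2 than in bio rep 1. Of 16 genes of heme synthesis and mitochondrial iron import, 8 were called higher and 0 lower (median 0.24). The share called was 50%, against 23.7% of all genes. UROD, which makes coproporphyrinogen, had 80.1, 86.3 and 90.8 FPKM in parental cells (lowest, median, highest) and 105, 113 and 123 in the LMO2 control line (0.41 ± 0.0432, adjusted p = 0.000118), with ranges apart. ALAD, which makes porphobilinogen, had 4.32, 4.76 and 5.68 FPKM against 6.62, 7.96 and 8.88 (0.59 ± 0.0779, adjusted p = 0.000492), also apart. UROS, which closes the porphyrin ring, had 3.42, 4.99 and 6.93 FPKM against 6.59, 7.83 and 9.99 (0.58 ± 0.0698, adjusted p = 0.000265), and ranges that just overlapped. The erythroid first enzyme ALAS2 rose by 0.91 (adjusted p = 0.0215), with a parental range of 25 to 251 FPKM and an LMO2 control range of 80.4 to 296. FAM210B, an inner-membrane protein of iron import, rose by 0.43 (adjusted p = 0.00594).

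Of 10 globin-group genes, 5 were called higher and 1 lower (median 0.38). The share called was 60%, against 23.7% of all genes. HBM and HBZ, the mu and zeta genes of the alpha locus, rose by 1.14 and 0.88 (adjusted p = 0.00792 and 0.0117). In bio rep 1 HBZ had 299, 367 and 211 FPKM on days 0, 1 and 4 in parental and 408, 439 and 245 in LMO2 control libraries. In bio rep 2 it had 99.6, 78.4 and 81 against 239.9, 275 and 204. The parental bio rep 2 libraries were thus the low ones, and the lines overlapped. HBE1, embryonic epsilon globin, was lower, at 2.28, 4.45 and 7.16 FPKM against 1.49, 2.65 and 3.39 (-0.69 ± 0.115, adjusted p = 0.00202). The fetal genes HBG1 and HBG2 were not called, with differences of 0.42 and -0.24. HBA1 with HBA2 and HBG1 with HBG2 are near-identical pairs whose values are uncertain.

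Of 25 genes of the erythroid membrane and surface, 7 were called higher and 0 lower (median 0.18). The share called, 28%, was near the 23.7% of all genes. SLC4A1, the band 3 anion exchanger, had 8.26, 15.4 and 12.5 FPKM in parental and 34.3, 39.1 and 25.9 in LMO2 control libraries of bio rep 1, and 2.62, 0.896 and 0.255 against 13.3, 9.35 and 3.64 in bio rep 2 (1.76 ± 0.264, adjusted p = 0.00109). It was higher in 6 of 6 pairs, and its ranges overlapped only between bio reps. KEL, the Kell blood group protein, had 20.7, 29.2 and 41.5 FPKM against 43.3, 50.4 and 69.2 (0.86 ± 0.0888, adjusted p = 0.000106), and EPOR, the erythropoietin receptor, had 9.2, 10.9 and 14 FPKM against 16.1, 17.3 and 24.8 (0.67 ± 0.0821, adjusted p = 0.000306). Neither overlapped. DMTN, dematin of the membrane skeleton, rose by 0.74 (adjusted p = 0.000609). The glycophorin gene GYPB and the transferrin receptor TFRC were not called, with differences of 0.33 and -0.21.

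The erythroid transcription factors did not move one way: 3 of 13 were called higher, 3 lower, with a median of 0.01. The share called was 46.2%, against 23.7% of all genes. Besides ZFPM1, KLF13 rose by 0.52 and KLF1, the erythroid Krüppel-like factor, by 0.32 (adjusted p = 0.00178 and 0.0154). MYB, a factor of immature precursors, fell by 0.35 (adjusted p = 0.011), and MAFG, a small MAF partner of NFE2, by 0.18. In bio rep 1 alone the medians were 0.02 for globins, 0.10 for heme synthesis and 0.02 for the membrane list. In bio rep 2 alone they were 0.80, 0.44 and 0.43. Calls in bio rep 1 alone were 1 higher and 2 lower for globins. Heme synthesis then had 4 and 1, and the membrane list 4 and 2. Calls in bio rep 2 alone were 6 higher and 0 lower, 8 and 0, and 10 and 0 for the same lists. A test of the difference between bio reps called 1 gene of 13949 in limma (1280 at an unadjusted p under 0.05), and none of the named genes. Without bio rep in the model the counts of called genes were 0 for globins, 3 for heme synthesis, 2 for the membrane list and 1 for the transcription factors. With median-of-ratios scaling 3 globin-group and 5 heme genes were called higher. Leaving out 1 library took the globin count from 5 to 2 (LMO2 control day 0, 1 or 4, replicate 2) or 3 (parental day 1 replicate 2), and the heme count from 8 to 5 (parental day 1 replicate 2 or day 4 replicate 1, LMO2 control day 0 or day 4 replicate 2).

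**Figure D4:**
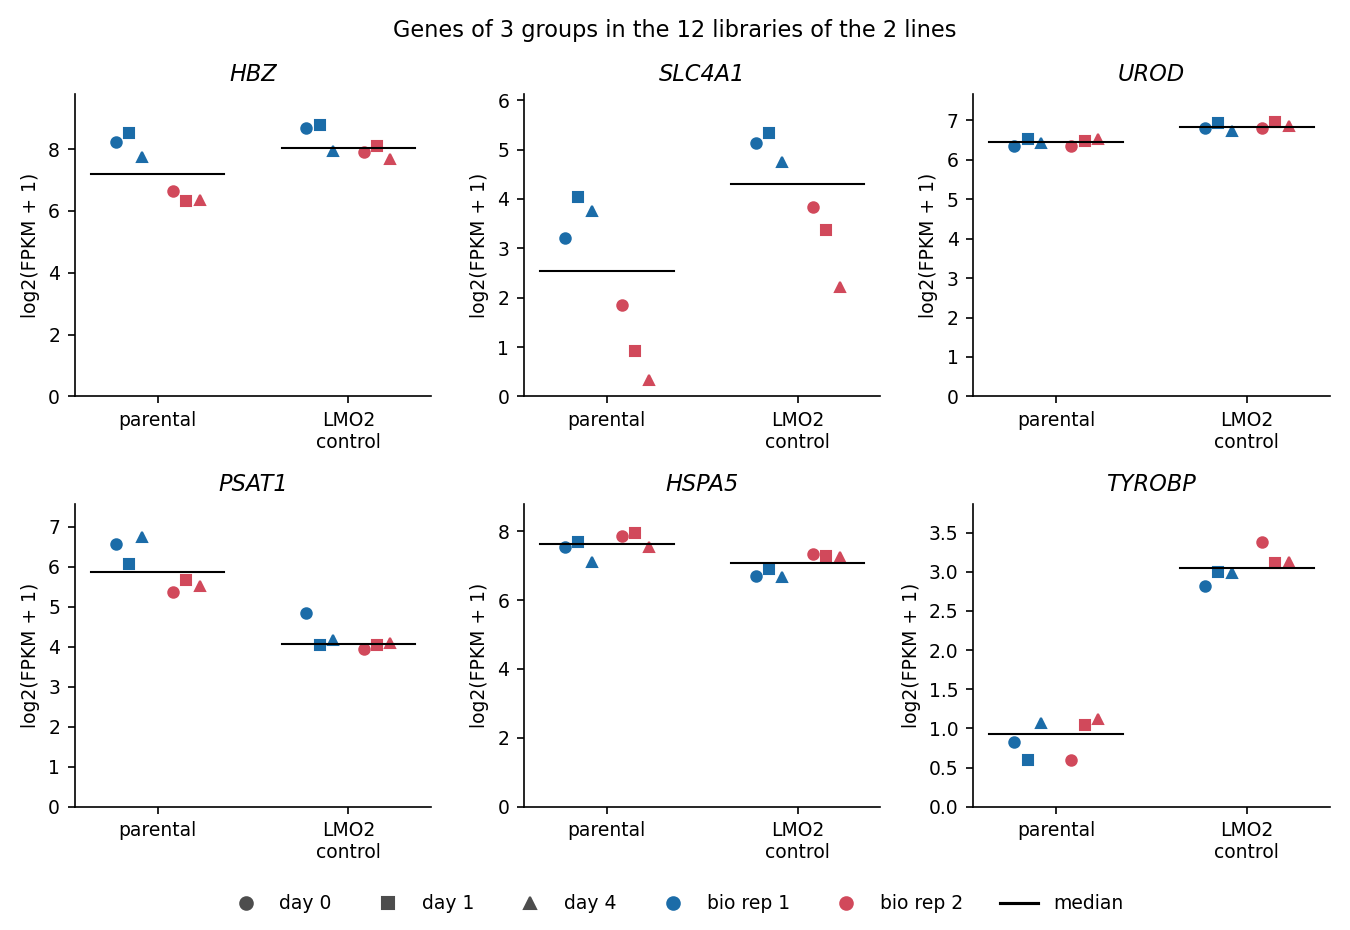
Levels as log2(FPKM + 1) (vertical axes) in the parental and LMO2 control lines (horizontal axes) for erythroid genes (HBZ, SLC4A1, UROD), genes of ATF4 and unfolded-protein responses (PSAT1, HSPA5) and the myeloid adaptor TYROBP, with a mark for each of the 12 libraries by day, a colour for each bio rep and the median as a line. SLC4A1 separates by bio rep within each line and by line within each bio rep, the lowest HBZ values are the 3 parental libraries of bio rep 2, and UROD, PSAT1 and TYROBP have no overlap between lines.

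Genes of the ATF4 and unfolded protein responses were lower. Of 22 tested members 18 were called lower and 0 higher, against 9.56% of all genes lower, and all 22 had a difference below 0 (median -0.56). Cells use ATF4 to raise amino-acid synthesis and transport under stress, and XBP1 and ATF6 to raise chaperones of the endoplasmic reticulum. PSAT1, an enzyme of serine synthesis, had 40.1, 57.5 and 106 FPKM in parental cells (lowest, median, highest) and 14.3, 15.8 and 27.7 in the LMO2 control line (-1.79 ± 0.169, adjusted p = 5.69e-05), with ranges apart. PHGDH, the first enzyme of that pathway, had 2.66, 5.89 and 11 FPKM against 0.755, 1.56 and 2.27 (-1.43 ± 0.211, adjusted p = 0.000974), also apart. CHAC1, a glutathione-degrading enzyme, had 1.01, 5.2 and 7.27 FPKM against 0.42, 1.1 and 2.67 (-1.26 ± 0.173, adjusted p = 0.000612), with overlap between parental libraries of bio rep 2 and LMO2 control libraries of bio rep 1. Of the chaperone branch, HSPA5 (BiP) had 136, 196 and 244 FPKM against 101, 135 and 162 (-0.59 ± 0.0726, adjusted p = 0.00032), lower in 6 of 6 pairs with overlapping ranges, and XBP1 had 31.5, 35.9 and 38.5 FPKM against 22.2, 24.9 and 26.4 (-0.50 ± 0.0538, adjusted p = 0.000137), with ranges apart. ATF4 itself fell by 0.42 and TRIB3, a pseudokinase induced by it, by 0.57 (adjusted p = 0.00744 and 0.00627). The members not called were DDIT4, CEBPB, DNAJB9 and PDIA4. The median was -0.67 in bio rep 1 alone (15 called lower) and -0.45 in bio rep 2 alone (5 called lower), and 7 were called lower without bio rep in the model. Medians by day were -0.42, -0.55 and -0.67 on days 0, 1 and 4, and no change between days was called.

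Replication-dependent histone genes were higher, with 10 of 13 called higher and 0 lower (median 0.67), against 14.1% and 9.56% of all genes. H1-2, a linker histone, had 451, 764 and 1169 FPKM in parental cells (lowest, median, highest) and 1148, 1332 and 1675 in the LMO2 control line (0.88 ± 0.113, adjusted p = 0.000427), with overlap between 1 parental and the lowest LMO2 control library. H1-4 had 1.79, 4.21 and 6.3 FPKM against 7.7, 9.33 and 12.8 (1.10 ± 0.171, adjusted p = 0.00132), with ranges apart, and H2BC12, a core histone gene, had 1137, 1375 and 1642 FPKM against 1624, 1942 and 2785 (0.58 ± 0.0805, adjusted p = 0.00064). Most histone messages lack a poly(A) tail, so that their level in polyadenylated RNA is not their level in the cell, and reads of near-identical copies may have been split. The median was 0.42 in bio rep 1 alone and 0.88 in bio rep 2 alone, and 6 were called higher without bio rep in the model.

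Other genes of the cell cycle had small median differences, with 28% of the S phase and 20.8% of the G2 and M phase list called, against 23.7% of all genes. Of 25 S phase genes 6 were called higher and 1 lower (median 0.02), and of 24 G2 and M phase genes 0 higher and 5 lower (median -0.09). E2F1, a transcription factor of S phase entry, had 15.7, 19 and 21 FPKM against 23.1, 26.2 and 30.6 (0.49 ± 0.0883, adjusted p = 0.00296), with ranges apart. Leaving out 1 library took the S phase count to between 1 and 5 and the G2 and M phase count to between 2 and 5, so that single members near the threshold are not named. Cyclins of G1 went both ways: CCND3 had 48.6, 55.1 and 67 FPKM against 66.8, 80.3 and 84.5 (0.46 ± 0.0599, adjusted p = 0.000439) and CCND2 had 5.3, 6.94 and 8.37 FPKM against 3.46, 4.39 and 4.81 (-0.59 ± 0.0903, adjusted p = 0.00125). Of 27 ribosomal protein genes 0 were called in limma (median 0.03; 0 higher and 2 lower at an unadjusted p under 0.05; median-of-ratios scaling called 2 lower), and of 24 genes of MYC and ribosome biogenesis 1 was called lower (NPM1, -0.29 ± 0.0753, adjusted p = 0.0182). All 13 mitochondrially encoded genes had differences above 0 (median 0.23), with 6 called higher, against 14.1% of all genes. MT-CYB, cytochrome b, had 1232, 1626 and 2136 FPKM in parental cells (lowest, median, highest) and 2439.7, 2718 and 3119.5 in the LMO2 control line (0.79 ± 0.0965, adjusted p = 0.000299), with ranges apart. The mitochondrial count was 3 without parental day 0 replicate 1, day 1 replicate 2 or day 4 replicate 1 or LMO2 control day 0 replicate 2, and 2 with median-of-ratios scaling. With that scaling 1 S phase gene was called higher and the S phase median was -0.03. The MYC list had 2 called higher without parental day 0 replicate 2 and 2 lower without LMO2 control day 1 replicate 1. A fit without bio rep called 1 S phase gene and 1 mitochondrial gene higher and 0 G2 and M phase genes lower.

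Cholesterol and fatty acid genes were lower more often than higher, with 11 of 29 called lower and 2 higher (median -0.17). Of all genes 9.56% were called lower and 14.1% higher. SQLE, squalene epoxidase, had 77.2, 115 and 153 FPKM in parental cells (lowest, median, highest) and 70.7, 79.9 and 104 in the LMO2 control line (-0.45 ± 0.069, adjusted p = 0.0012), lower in 6 of 6 pairs with overlapping ranges. INSIG1, which holds the SREBP transcription factors in the endoplasmic reticulum, went the other way, at 103, 173 and 223 FPKM against 196, 269 and 356 (0.71 ± 0.12, adjusted p = 0.0021), higher in 6 of 6 pairs with overlapping ranges. Without bio rep in the model 3 were called lower and 1 higher, and the lower count was 7 without parental day 4 replicate 1 or LMO2 control day 4 replicate 2. The higher count was 1 without any 1 of 6 libraries.

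Tested members of a list of monocyte and granulocyte markers were mostly higher in the LMO2 control line. MS4A3, the gene of myeloid precursors named among the largest falls, went the other way (-1.55). Of the 22 listed markers 8 passed the filter, of which 5 were called higher and 0 lower (background 14.1% and 9.56%). The summed level of the list ran from 27.7 to 46.3 FPKM in parental and from 55.3 to 71.8 in LMO2 control libraries. In bulk RNA, more cells of a type and more RNA per cell cannot be told apart. The defining markers CD14, CSF1R, MPO and CD68 stayed under 0.3 FPKM in all 12 libraries. TYROBP, an adaptor of myeloid receptors, had 0.511, 0.912 and 1.16 FPKM in parental cells (lowest, median, highest) and 6.03, 7.3 and 9.4 in the LMO2 control line (2.19 ± 0.108, adjusted p = 9.91e-07), with ranges far apart. ITGAM, the CD11b integrin, had 0.842, 1.54 and 2.79 FPKM against 4.61, 5.39 and 6.23 (1.32 ± 0.0961, adjusted p = 9.12e-06), and SPI1, the PU.1 transcription factor, had 13.7, 18 and 21.9 FPKM against 23.3, 28.5 and 36.2 (0.71 ± 0.0684, adjusted p = 6.49e-05). Neither overlapped. LYZ, lysozyme, had 3.16, 6 and 8.29 FPKM against 5.77, 8.65 and 11 (0.58 ± 0.127, adjusted p = 0.00816) with overlap.

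Megakaryocyte markers (21, of which 6 were tested) had 2 called higher and 1 lower: ITGA2B, the platelet integrin CD41, at 0.792, 1.78 and 2.42 FPKM against 2.89, 4.12 and 5.42 (0.92 ± 0.12, adjusted p = 0.000455), NBEAL2 at 0.37 and GP6, the collagen receptor, at -0.53. Stem and progenitor genes had 0 called higher and 3 lower of 7 (MYB, LMO4 and BMI1, median -0.21). Of all genes 14.1% were called higher and 9.56% lower. BMI1 lost its call without any 1 of 7 libraries (adjusted p from 0.0585 to 0.0813), and 1 of the 3, LMO4, was called without bio rep in the model. Of 20 lymphoid markers 3 were tested: 2 were called higher, among them CD7 (0.47), and 1, CD3D, lower (-1.08 ± 0.153, adjusted p = 0.000773), the last with overlapping ranges. CD3E and MS4A1 were at or near 0, and CD7 was under the filter and not tested without LMO2 control day 0 or day 1 replicate 1. CD7 was also not called without bio rep in the model, which left 1 called higher. COL1A1, of 14 stroma genes, had 0.339, 0.594 and 0.994 FPKM against 1.3, 1.86 and 2.74 (0.88 ± 0.127, adjusted p = 0.000843), while the other stroma markers COL1A2 and DCN stayed near 0 as above.

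Interferon-response genes had 5 of 8 called higher and 1, IFITM3, lower (median 0.23), against 14.1% and 9.56% of all genes. ISG15, a ubiquitin-like modifier, had 9.87, 10.9 and 12.7 FPKM against 14.5, 16.8 and 23.4 (0.60 ± 0.0779, adjusted p = 0.000426), and BST2, tetherin, had 105, 114 and 128 FPKM against 141, 157 and 162 (0.41 ± 0.0564, adjusted p = 0.000666). Both had ranges apart, opposite in direction to IFITM3. Of the 5 higher calls, 2 were also made without bio rep in the model. Of 13 JAK-STAT genes 3 were called higher (EPOR, IL2RG and TYK2) and 5 lower. The share called was 61.5%, against 23.7% of all genes. IL2RG, the common gamma chain of cytokine receptors, had 0.521, 0.752 and 1.59 FPKM against 2.16, 2.39 and 2.93 (0.84 ± 0.0904, adjusted p = 0.000133), with ranges apart. PIM1, a kinase induced by STAT5, fell by 0.55 (adjusted p = 0.0083) with overlap, and JAK2, the kinase of the erythropoietin receptor, by 0.51 (adjusted p = 0.0109). Without bio rep in the model 0 of the 13 were called lower in limma, and 3 were without parental day 1 replicate 2 or day 4 replicate 1, or LMO2 control day 0 replicate 1, day 1 replicate 2 or day 4 replicate 1 or 2.

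In the remaining lists the share called ran from 15.4% (apoptosis regulators) to 50% (MHC genes), against 23.7% of all genes. MHC genes had 2 of 6 called higher and 1 lower (HLA-E 0.69, B2M 0.23 and TAP2 -0.53). Apoptosis regulators had 2 of 13 higher (BAX 0.45 and BAD 0.28) and 0 lower, HIF targets 3 of 17 higher and 1 lower, and adhesion genes 2 of 13 higher and 3 lower. SELPLG, the ligand of P-selectin, rose by 0.92, and PECAM1 and CD44 differed by -0.66 and -0.46. Genes of p53, cyclins and CDK inhibitors had 2 of 17 higher and 4 lower, CDKN1A, the p21 inhibitor, at -0.65. Immediate early genes had 1 of 17 higher, JUNB (0.74), and 3 lower, mast cell markers 1 of 3 higher, SIGLEC6 (0.59), and the K562 markers 2 of 12 higher and 3 lower. Of these counts, those that moved by over 1.5 times without 1 library were HIF higher (1 without LMO2 control day 1 replicate 1), HIF lower (2 without parental day 0 replicate 2, and 0 as given next), immediate early higher (2 without parental day 1 replicate 2), adhesion lower (1 without parental day 1 or day 4 replicate 2) and p53 and cyclins lower (2 without parental day 4 replicate 1 or LMO2 control day 1 replicate 2 or day 4 replicate 1 or 2). The HIF target called lower was VEGFA (-0.60), which lost its call without any 1 of 10 libraries (adjusted p up to 0.0872). A limma fit without bio rep called 0 HIF targets and 0 K562 markers in either direction. In that fit MHC genes had 1 higher and 1 lower, apoptosis regulators 1 higher and adhesion genes 0 higher and 1 lower. The p53 and cyclin list then had 2 higher and 1 lower, and the immediate early list 1 and 1.

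A list of FKBP1A, VHL and its ligase partners, and of CRBN, DDB1 and CUL4A of the cereblon ligase, which other degraders use, was examined because both lines received dTAGv1. Of 9 listed genes, 4 were called higher and 1 lower (2 higher without LMO2 control day 0 replicate 1), against 14.1% and 9.56% of all genes. Among the 4 is FKBP1A, whose fragments may have come from a tag. With bio rep left out of the model 1 was called higher and 1 lower, and VHL, CRBN and ELOB were not called. CUL4A, the scaffold of the ligase that uses cereblon, had 15.8, 17.1 and 17.5 FPKM in parental cells (lowest, median, highest) and 7.12, 7.66 and 8.23 in the LMO2 control line (-1.04 ± 0.042, adjusted p = 4.41e-07), with ranges apart, and it lies on the stretch of chromosome 13 described next. VHL, the ligase receptor that dTAGv1 binds, had 14.1, 15.7 and 18.6 FPKM against 16.6, 19.1 and 20.8 (0.26 ± 0.064, adjusted p = 0.0157) with overlap. CRBN and ELOB rose by 0.26 and 0.17, calls that were lost without any 1 of 6 and of 5 libraries (adjusted p up to 0.0635 and 0.073). CUL2, ELOC, RBX1 and DDB1, other ligase subunits, were not called, at -0.21, -0.03, -0.01 and -0.05.

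A list of genes called on day 1 of LMO2 degradation in these data was then looked up, with values in the degron lines from a separate fit that shares no library with the line difference. That fit called 8692 of 14469 genes (60.1%; 36.5% higher and 23.5% lower) between day 0 and day 4 in the degron lines, and with median-of-ratios scaling 3836 higher and 4450 lower. Of the 10 genes tested here, 3 were called higher in the LMO2 control line and 1 lower. In the line difference 14.1% of all genes were called higher and 9.56% lower. UROD differed by 0.41 between the lines and by -1.18 from day 0 to day 4 in the degron lines. For KLF1 the 2 values were 0.32 and -3.14, and for PLCB2, a phospholipase of G-protein signalling, 0.85 and 1.26. CDC42EP1, an effector of CDC42, was at -0.23 in the line difference, a call lost without any 1 of 8 libraries (adjusted p up to 0.0815). MYC and NFE2 were not called between the lines (-0.16 ± 0.0835, adjusted p = 0.193, and -0.04 ± 0.0457, adjusted p = 0.545). Among the other named genes, HBZ had 0.88 between lines and -3.96 in the degron lines, TYROBP had 2.19 and 1.78, and PSAT1 had -1.79 and -1.53. These pairs are set side by side with no test of their relation.

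Neighbouring genes differed together on 2 chromosomes. Genes were ordered by a GENCODE annotation, which placed 13392 of the 13949, and those with a mean of at least 5 FPKM were described. On chromosome 13, 77 of 96 genes (80.2%) were called. Of all 7154 genes at this level, 1029 were called higher and 845 lower. The 69 genes from MPHOSPH8 to HNRNPA3P5 had a median of 0.39 (a ratio of 1.31), with 52 called higher and 1, SLC7A1, lower. The 27 genes from MZT1 to CHAMP1 at the end had a median of -0.998 (a ratio of 0.501), with 24 called lower and 0 higher. The 3 that were not called were PTMAP5 and RPL15P18, processed copies of genes elsewhere, and MIR17HG. The boundary was set after the values were seen, so no test is given.

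After the boundary the genes differed by similar amounts. MZT1, a gamma-tubulin complex protein and the first gene after the boundary, differed by -1.15, and CHAMP1, the last, by -0.89. CDC16, a subunit of the anaphase-promoting complex, differed by -1.05, IPO5, an importin, by -1.09, and UPF3A, of nonsense-mediated decay, by -1.16. Before the boundary RB1, the retinoblastoma tumor suppressor, rose by 0.50 and LCP1, an actin-bundling protein of leukocytes, by 0.77. The middle 50% of genes ran from 0.25 to 0.50 before the boundary and from -1.08 to -0.86 after it. Medians were 0.44, 0.30 and 0.43 on days 0, 1 and 4 before it, and -0.93, -1.02 and -1.02 after it. In bio rep 1 and 2 alone they were 0.35 and 0.42, and -0.98 and -0.98. In degron line 1 against parental cells on day 0 the same genes had medians of 0.03 and -0.04, and in degron line 2 of 0.01 and -0.06. LINC00431 was also low in both degron lines on day 0 (-1.69 and -2.57), and PARP4, which rose most before the boundary, was also high in them (1.08 and 1.14).

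**Figure D5:**
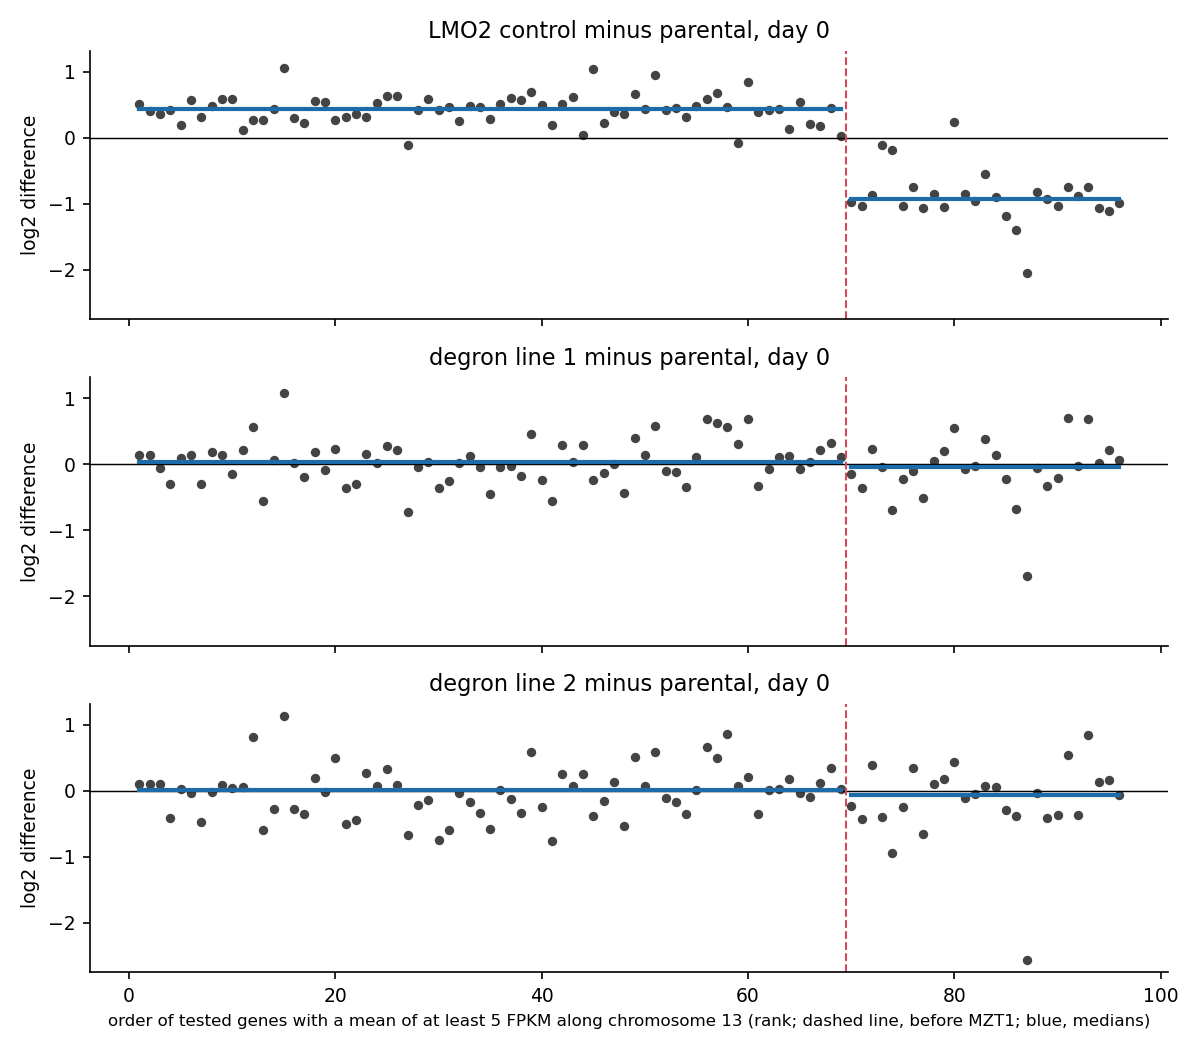
Log2 difference from parental cells on day 0 (vertical axes) for 96 genes of chromosome 13 in their order along the chromosome (horizontal axis, rank of the gene), for the LMO2 control line and both degron lines, with the boundary before MZT1 as a dashed line and the median on each side in blue. In the LMO2 control line the points step from a median of 0.44 to -0.93 at the boundary, while both degron lines keep medians within 0.06 of 0.

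At the start of chromosome 3, 21 genes from TRNT1 to SEC13 had a median of 0.38, with 17 called higher and 0 lower, and the 343 genes after SEC13 had a median of -0.01. The end of that stretch was not sharp: after SEC13, XPC and NUP210 among others were also called higher (0.39 and 0.50). VHL and CRBN lie in this stretch. TADA3, a subunit of histone acetyltransferase complexes, rose by 0.76 and ARPC4, of the actin-nucleating Arp2/3 complex, by 0.72. On day 0 TADA3 was also higher in the degron lines than in parental cells (0.51 and 0.64). The degron lines had day 0 medians of 0.08 and 0.02 over the same genes. On all other chromosomes together 877 of 6523 genes were called higher and 751 lower, with a median of 0.00. Of 6406 windows of 25 neighbouring genes, 76 had a median above 0.3 (52 on chromosome 13 and 24 on chromosome 3) and 12 below -0.3, all on chromosome 13. Without chromosome 13 and the start of chromosome 3, 3036 genes were called (1808 higher, 1228 lower), so that most calls lie outside these stretches.

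Shorter runs were seen elsewhere. Of 166 genes at 2-fold with a known place, 41 stood next to another tested gene that was called at 2-fold in the same direction, in 18 runs, and 10 of the 41 were on chromosome 13. The runs included CA1 and CA3 on chromosome 8, LINC00861 and SOD1P3 on chromosome 8, EGFL7 and MIR126 on chromosome 9 (a microRNA within its host gene), PACERR and PLA2G4A on chromosome 1, and DCAF8L2 and DCAF8L1 on the X chromosome, all higher. MS4A3 and MS4A4A on chromosome 11 and CT45A10 and SAGE1 on the X chromosome were runs of lower genes. On chromosome 13 the pseudogenes PHF2P2, USP24P1, GTF2IP3 and CENPIP1 formed a run of higher genes with AL355516.1. Overlapping genes among these may share fragments, since strand is not given.

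Base composition moved with the line difference. Across 6983 genes with a mean of at least 5 FPKM, the log2 difference had a Spearman correlation of 0.40 with the GC content of the gene's transcripts and of -0.06 with length, a description over genes that share the same libraries. Genes of at most 43.6% GC, the lowest 25%, had a median of -0.11, and those of at least 57.8%, the highest 25%, had 0.10. Among libraries, LMO2 control day 1 replicate 1 had the strongest such trend against the gene means (0.54), and parental day 4 replicate 1 the most negative (-0.40). With the GC trend removed in each library, 1773 genes were called higher and 1332 lower of 13424, of which 2455 were among the 3302. Under that correction the list of ATF4 and unfolded-protein genes had 18 calls, the heme list had 7 and the monocyte list 5. The globin list had 2 called higher and 1 lower. Of the replication-dependent histone list 0 members entered that fit, so their rise was not checked against the GC trend. The part of base composition in the smaller differences was otherwise not tested.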

How the data were processed

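RNA-seq values of 24 K562 libraries in 1 table were used. The authors deposited FPKM per gene. Reads were processed with FastQC, STAR and featureCounts on hg19, per the submitters' processing notes, with versions, annotation and strand not given in the sources used here. Counts of HEL cells and TPM of the LDB1 knockdown were not used here.

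Genes that reached 1 FPKM in 2 or more of the 12 libraries were tested on log2(FPKM + 1) with limma 3.58.1 in R 4.3.3 (robust empirical Bayes with a mean-variance trend), with line, day and bio rep as terms and Benjamini-Hochberg adjustment over all tested genes, called at an adjusted p under 0.05. Errors after ± are standard errors unless marked SD. Day differences and their changes came from a model of 6 line and day groups with bio rep. The test script was tested on simulated data. LMO2 was also tested by exact sign flips of the matched pairs. Bio rep was a term because deviations from group means correlated at 0.394 to 0.675 among the bio rep 1 libraries of both lines. Depth was recovered from the steps of FPKM in single-exon genes, where 93.7% to 94.8% of values were whole fragments within 0.02, and intervals for counting error were not computed.

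Named genes were LMO2, LDB1 and TAL1, the 12 largest rises and falls at a mean of at least 5 FPKM with 1 sign in all pairs, up to 6 genes present in 1 line alone, up to 4 members per list by adjusted p, and all genes of the dTAG and degron day 1 lists. Other genes were named after their values were seen. The members and the 30 lists were chosen with earlier results of these data known. Gene order, type and the sequences came from GENCODE release 29, a different build from that of the files, so no coordinates are given. Alternatives were the pseudocount, the filter, the scaling, the block, the libraries fitted and leaving out libraries or days. The GC correction, the fit without the chromosome 13 and 3 stretches and the line by bio rep interaction were chosen after seeing the data. Some items are not reported here.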

Additional observations from a re-analysis of the deposited data

How the results depend on the processing

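The direction of LMO2, FKBP1A and the stretch of chromosome 13 after MZT1 held under the alternatives run for each, while counts of called genes moved. The count of 3302 genes became 1971 at a mean of at least 5 FPKM (1866 of them among the 3302), 1221 with no replicate block (all among them), 1723, 1693 and 1490 without day 0, 1 or 4 (1627, 1608 and 1439 among them), and 1759 and 989 in bio rep 1 or 2 alone (1443 and 888 among them). Leaving out 1 library gave 2394 to 3372. A block of the 6 matched pairs gave 3627. The 189 genes at 2-fold became 469 with a pseudocount of 0.1 and 79 at a mean of at least 5 FPKM, and 182 to 197 without 1 library. The counts for days 0, 1 and 4 (410, 326 and 300) were 242, 195 and 175 with no filter, 199, 174 and 119 at a mean of at least 5 FPKM, 85, 70 and 71 with no replicate block, and 705, 645 and 519 with all 24 libraries. Without 1 library they ran from 71 to 475, from 74 to 861 and from 54 to 328. Changes of the difference from day 0 to days 1 and 4 (0 and 0 in limma, 255 and 261 at an unadjusted p under 0.05) were 7 and 9 with no filter and 0 to 0 without 1 library. The degron count of 8692 was 5201 at a mean of at least 5 FPKM. The mean matched LMO2 difference ran from 2.79 to 3.03 without 1 matched pair. Genes near 0 that were not called changed sign: C2orf88 went from -0.05 to 0.0804 without day 1, and ran from -0.106 to 0.027 without 1 library. ELOC became 0.0175 without day 1, 0.0315 in bio rep 1 alone and 0.0792 with the GC trend removed. NFE2 became 0.00115 without day 4 and 0.0323 in bio rep 2 alone. RBX1 became 0.00705 without day 1, 0.0399 in bio rep 1 alone and 0.0366 with the GC trend removed, and ran from -0.0422 to 0.0179 without 1 library. TTLL12 became -0.021 with the GC trend removed. Where a count moved with a setting, the cause was not tested, except that fewer genes or libraries entered the fits named for that. Median-of-ratios scaling moved the median of all genes from 0.02 to -0.02 and turned the split of calls from 1969 higher and 1333 lower to 1534 and 1938. With 1 line per label and 2 bio reps, differences between single days are the least precise values.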
